A study of Mus musculus with 4 samples.

Results

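Malat1, Neat1, Meg3, Rian, Mirg, Miat and Snhg11 are long non-coding RNAs that are retained in the nucleus and are abundant in brain. They were picked by symbol from the feature list, 7 of its 55403 entries, and each symbol matched 1 entry. Their unique molecular identifiers (UMIs, 1 per captured RNA molecule) were summed per cell class and library. Levels are given as CPM, the UMIs of a gene scaled to a fixed total of all UMIs in that class and library, or as a percentage of all UMIs. RNAs of different length are not compared with each other.

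Nuclei of frozen, pooled mouse hippocampus were profiled with a droplet 3′ kit. The WT group had 1 library and the PS19 group had 2. PS19 mice, line PS19Vle on a B6;C3 background with a Prnp-MAPT*P301S transgene, express P301S mutant human tau of the 1N4R isoform from the prion protein promoter and model tau pathology. The TG_PS19 group, with 1 library, carried the same tau transgene and a second transgene in the Rosa26 locus that overexpresses the sorting receptor SORLA from a CMV/β-actin promoter. The groups were littermates, and the labels give no age, sex or number of animals per pool. The labels do not say if the pair of PS19 libraries had 2 pools of animals. The p-values rest on the spread between these 2 libraries, pooled in part over genes, and that spread may be technical.

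After quality limits and doublet removal 11458 nuclei remained for WT, 4467 and 4728 for PS19 and 8963 for TG_PS19, with median depths of 2643 to 3709 UMIs per barcode before filtering. Of the kept barcodes, 36 to 67 per library also occurred in another library. Marker genes named 12 classes with at least 50 nuclei in every library: dentate granule, CA1 pyramidal, other excitatory, inhibitory and Cajal-Retzius neurons, oligodendrocytes and their precursors, astrocytes, microglia, endothelial cells, mural cells and fibroblasts. A class name means that its clusters resemble that class by these markers. PS19 nuclei were deeper in most classes, with a median in microglia of 1609.5 UMIs in WT, 2228 and 2573.5 in PS19 and 1681 in TG_PS19. The TG_PS19 library also differed in sex, with Xist or Tsix UMIs and no Y-linked UMIs (Xist-called) in 51.4% of nuclei against at most 0.336% in the other libraries. Nuclei with Y-linked UMIs and none of Xist or Tsix (Y-called) made up 24.0% of TG_PS19 nuclei and 67.9% to 74.9% of those of the other libraries, and some results are given for the Y-called nuclei alone. Where genotype and depth move together they cannot be told apart.

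Malat1 marks nuclear speckles, where splicing factors are stored, and Neat1 is the scaffold around which paraspeckles assemble. Meg3, Rian and Mirg are read from the maternal copy of the imprinted Dlk1-Dio3 domain, and Rian and Mirg carry small nucleolar RNAs and microRNAs in their introns. Miat forms its own nuclear domains in neurons, and Snhg11 is a host gene of small nucleolar RNAs.

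In GENCODE M21 on mouse build GRCm38, Malat1 lay at chr19:5795690-5802672 and Neat1 at chr19:5824708-5845478, both on the minus strand and 22035 bases apart. Meg3 lay at chr12:109541001-109571726, Rian at chr12:109603940-109661716 and Mirg at chr12:109729764-109749460, all on the plus strand, with gaps of 32213 and 68047 bases between them. Miat lay at chr5:112213228-112229395 on the minus strand and Snhg11 at chr2:158375638-158386145 on the plus strand. M21 gives Snhg11 the biotype protein_coding, Rian the biotype processed_transcript and the other members lincRNA. Meg3, Mirg, Malat1 and Miat each overlap 1 gene on the opposite strand, and their reads could not be told apart from it if strand was not used in counting.

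The chromosome 12 members host microRNAs, and a few mature sequences from RefSeq (GRCm38.p6) are shown as what these transcripts carry. Inside the Mirg gene lay 14 hairpins with 26 mature sequences in the table, inside Rian 3 with 6 and inside Meg3 2 with 3. The 26 mature sequences of Mirg had 25 distinct seeds. The seed, bases 2 to 8, is in capitals, and the first pair below shares it.
mmu-miR-453 (Mirg): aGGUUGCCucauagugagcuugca
mmu-miR-496a-5p (Mirg): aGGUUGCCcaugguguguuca
mmu-miR-134-5p (Mirg): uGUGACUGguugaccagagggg
mmu-miR-370-3p (Rian): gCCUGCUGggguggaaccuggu
mmu-miR-770-5p (Meg3): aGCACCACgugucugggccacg
The libraries captured long polyadenylated RNA, so these microRNAs themselves were not measured.

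RefSeq promoter windows, from 250 bases before to 50 after a gene's start, are shown for the upstream pair of chromosome 12 members and for Snhg11, whose level differed most between classes. Capitals mark matches on either strand to the motifs named after the sequences.
Meg3 promoter, chr12:109540746-109541045, plus strand: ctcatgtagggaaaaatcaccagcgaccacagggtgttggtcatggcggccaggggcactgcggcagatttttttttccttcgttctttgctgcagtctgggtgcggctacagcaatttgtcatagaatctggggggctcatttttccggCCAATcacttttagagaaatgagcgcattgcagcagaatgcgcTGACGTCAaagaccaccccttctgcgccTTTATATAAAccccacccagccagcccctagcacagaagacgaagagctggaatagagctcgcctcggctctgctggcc
Rian promoter, chr12:109603695-109603994, plus strand: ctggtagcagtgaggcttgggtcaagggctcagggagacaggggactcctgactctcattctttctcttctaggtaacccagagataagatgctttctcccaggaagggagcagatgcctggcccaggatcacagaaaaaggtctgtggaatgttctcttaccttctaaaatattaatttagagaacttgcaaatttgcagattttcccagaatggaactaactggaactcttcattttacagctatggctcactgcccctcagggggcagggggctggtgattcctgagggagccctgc
Snhg11 promoter, chr2:158375463-158375762, plus strand: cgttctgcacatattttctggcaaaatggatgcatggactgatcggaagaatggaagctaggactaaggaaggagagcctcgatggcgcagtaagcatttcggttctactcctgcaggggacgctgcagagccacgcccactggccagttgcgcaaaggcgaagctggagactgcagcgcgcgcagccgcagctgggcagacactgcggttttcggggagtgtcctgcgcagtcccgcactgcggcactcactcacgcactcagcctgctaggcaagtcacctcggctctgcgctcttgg
The Meg3 window held TGACGTCA, the cyclic AMP response element, which 1.79% of 32851 windows of the same length hold on either strand. It also held the CCAAT box, found in 37.4% of windows. Matches to TATAAA on both strands overlapped there, and 13.6% of windows hold this motif. None of these motifs was found in the windows of Rian and Snhg11. The GC box GGGCGG, found in 35.7% of windows, was in none of the 3. The Rian window held 0 CpG dinucleotides, the Meg3 window 13 and the Snhg11 window 21, against a median of 7 over all windows. The RefSeq window of Mirg starts inside the gene as GENCODE draws it and overlaps miR-668, and is not printed. Neat1 was not matched in the promoter table.

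All 7 members were detected in every library, with 0 UMIs only in some classes outside neurons for Mirg and Miat. Together they made up 4.68% to 16.3% of the UMIs of a class. The plot of levels by class shows that Malat1 had the narrowest range of the 7, that Neat1 was highest in oligodendrocytes, and that the highest class of each other member was a neuron class.

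**Figure D1:**
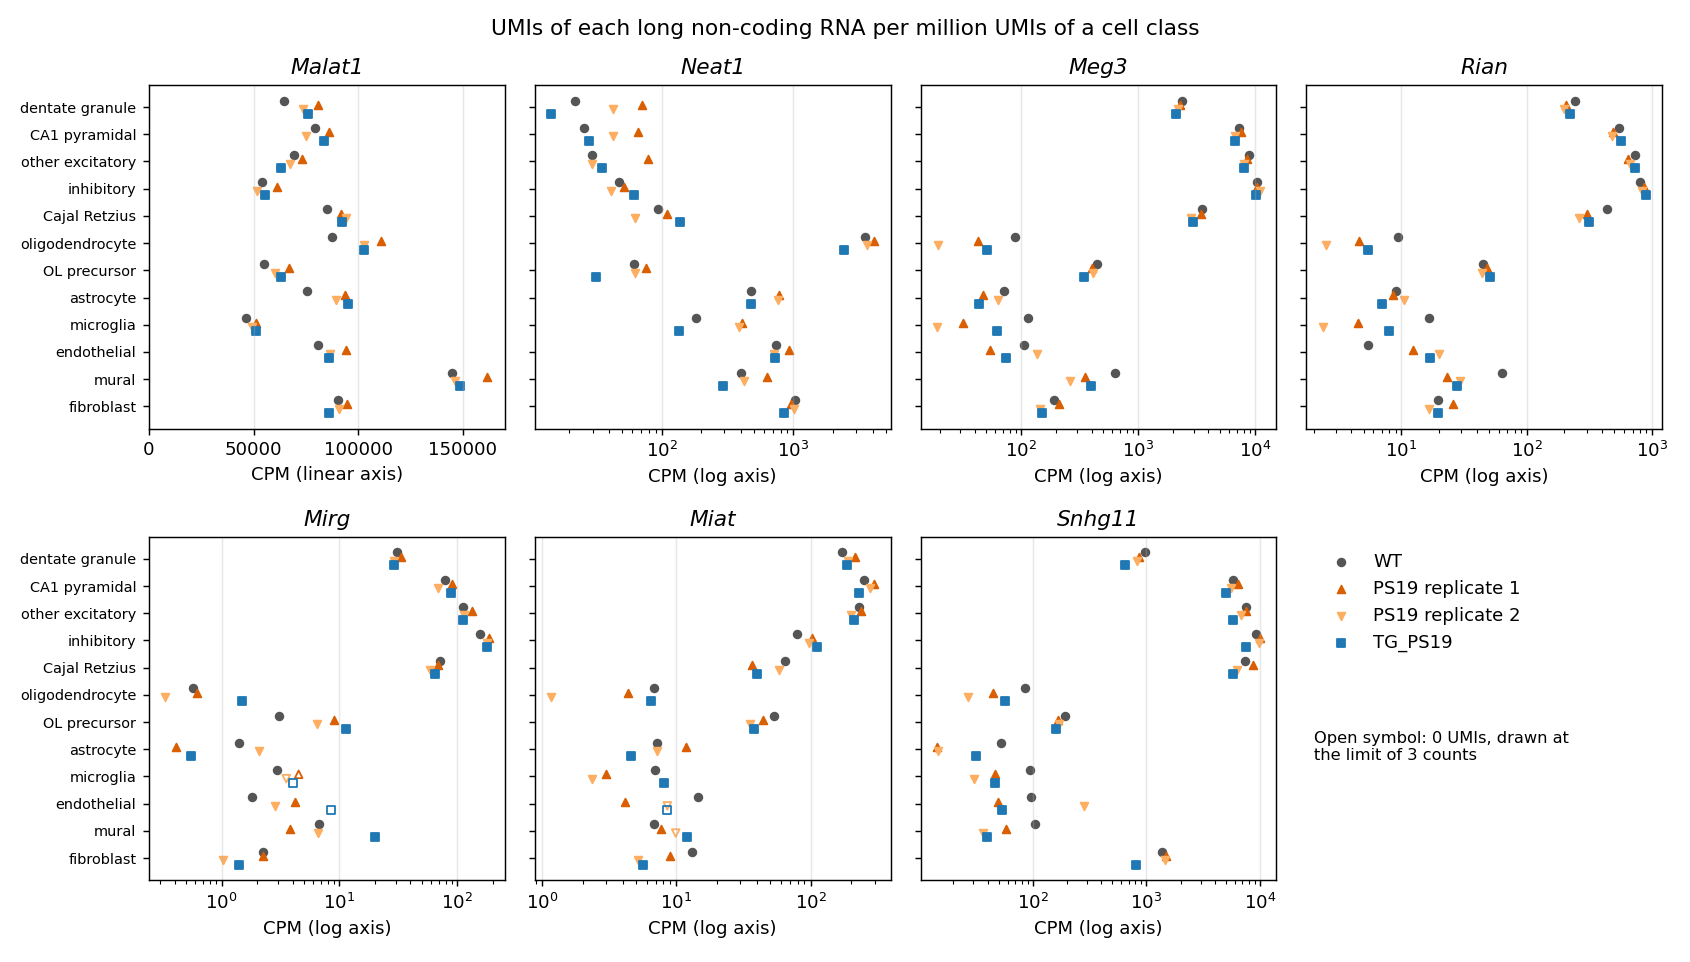
CPM of each member (horizontal axis, linear for Malat1 and logarithmic for the others) in 12 cell classes (vertical axis), 1 point per library, with open points at the limit of 3 counts where no UMI was found. Neat1 peaks in oligodendrocytes at 2425 to 4118 CPM, while Meg3, Rian and Mirg peak in inhibitory neurons.

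Malat1 was highest in mural cells of vessel walls, at 14.5% of UMIs in WT, 16.1% and 14.6% in PS19 and 14.9% in TG_PS19. It was lowest in microglia, at 4.64% in WT, 5.09% and 4.92% in PS19 and 5.12% in TG_PS19. The mean of the 3 groups in mural cells was 3.03 times that in microglia, and both classes stood apart from their neighbours in the order without overlap of libraries. The 10 classes between them, led by oligodendrocytes (8.75% to 11.1%), each overlapped at least 1 neighbour. After thinning to 1000 UMIs, at least 99.9% of nuclei of any class and library still held a Malat1 UMI.

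Neat1 showed a 105-fold range. In oligodendrocytes, the myelinating cells, it reached 3516 CPM in WT, 4118 and 3638 in PS19 and 2425 in TG_PS19. Fibroblasts (852 to 1033 CPM), endothelial cells (713 to 920 CPM) and astrocytes (479 to 781 CPM) followed. The oligodendrocyte libraries did not overlap those of any other class. Dentate granule neurons had the lowest mean, with 22.0 CPM in WT, 71.6 and 42.6 in PS19 and 14.5 in TG_PS19, and neuron libraries lay at or below 137 CPM throughout. Oligodendrocyte precursors, at 31.9 to 76.8 CPM, lay in the range of neurons and far below mature oligodendrocytes. In all 4 libraries Neat1 was higher in oligodendrocytes than in their precursors, with no overlap.

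Meg3 was highest in inhibitory neurons, with 10509 CPM in WT, 10467 and 11124 in PS19 and 10267 in TG_PS19. Other excitatory neurons (8022 to 8902 CPM), CA1 pyramidal neurons (6732 to 7574 CPM), Cajal-Retzius neurons (2815 to 3519 CPM) and dentate granule neurons (2111 to 2375 CPM) followed, and none of these 5 ranges overlapped. The order of neuron classes was the same for Rian and for Mirg. Rian fell from 804 to 895 CPM in inhibitory to 199 to 243 CPM in dentate granule neurons, and Mirg from 155 to 184 CPM to 29.0 to 33.2 CPM.

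Outside neurons the chromosome 12 members were low. Meg3 had a mean of 447 CPM in mural cells, 400 CPM in oligodendrocyte precursors and 56.5 CPM in astrocytes, the lowest class, which gave a 186-fold range. Across the 48 combinations of class and library, Meg3 and Rian had a Pearson correlation of 0.990, Rian and Mirg 0.977 and Meg3 and Mirg 0.961, on log2(CPM + 10). These points share libraries and depth and are a description. Rian had 0.0645 to 0.124 UMIs for each Meg3 UMI in neuron classes, and the 5 neuron classes stayed within this range in all libraries. By the same measure, among 8349 genes with a mean of at least 20 CPM, the genes closest to this group were Gm37899, at chr12:109668869-109677585 between Rian and Mirg (0.977 with Rian), and B830012L14Rik (0.968 with Mirg), which also lies between them.

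Miat was a neuron transcript with another order. CA1 pyramidal neurons had 251 CPM in WT, 299 and 279 in PS19 and 230 in TG_PS19, and dentate granule neurons 171 to 214 CPM. Inhibitory neurons had only 79.7 to 111 CPM, below every library of the excitatory classes of CA1, dentate gyrus and other origin. The order of inhibitory and dentate granule neurons was thus opposite to that of Meg3, without overlap in either gene. In oligodendrocytes Miat was 47.8 times lower than in CA1, and the genes most like it were Stxbp5l, Add2 and Atp2b3, with correlations of 0.970 to 0.975 over the 48 points. Stxbp5l encodes a syntaxin-binding protein, Add2 a spectrin-binding adducin and Atp2b3 a calcium pump of the plasma membrane.

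Snhg11 was highest in inhibitory neurons, with 9255 CPM in WT, 10041 and 9770 in PS19 and 7485 in TG_PS19, and 271 times lower in astrocytes. Cajal-Retzius neurons, at 5792 to 8596 CPM, ranked near the top for Snhg11, whereas dentate granule neurons had 642 to 978 CPM. Fibroblasts had 1359 CPM in WT, 1495 and 1469 in PS19 and 813 in TG_PS19, which overlapped the range of dentate granule neurons. In fibroblasts 5.38 to 10.1 Snhg11 UMIs were counted per Meg3 UMI, against 0.304 to 0.412 in dentate granule neurons and 0.100 to 0.163 in mural cells. The ratio in fibroblasts lay above the highest ratio of any neuron class, 2.48. The genes most like Snhg11 were Epha3, Mtus2 and Kcnb2, with correlations of 0.915 to 0.957.

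The genes most like Malat1 were E130102H24Rik, Lmna, which encodes the nuclear lamina protein lamin A/C, and Fermt2, with correlations of 0.782 to 0.818. Those most like Neat1 were Tsc22d3, a target of glucocorticoids (0.928), Csf1, the growth factor of microglia (0.897), and Clk4, a kinase of splicing factors (0.895). Neat1 and Meg3 had a correlation of -0.818 and Malat1 and Neat1, the neighbours on chromosome 19, one of 0.498.

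The comparison of PS19 with WT asks what goes with the tau transgene, and that of TG_PS19 with PS19 what goes with added SORLA. Counts were tested with edgeR's quasi-likelihood test within each class, over all genes, with Benjamini-Hochberg adjustment, and a gene was called at an adjusted p under 0.05. The lone WT and TG_PS19 libraries were assumed to vary like the PS19 pair, which left 1 residual degree of freedom. The edgeR test draws the spread of each gene toward a trend over all genes of the class. A gene whose PS19 libraries differ widely can therefore still be called. An exact rank test of a single gene, 1 library against 2 and two-sided, has a smallest possible p of 0.667 and was not run. Both comparisons share the PS19 libraries, so that a high PS19 value moves them in opposite directions.

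Of the 84 member and class pairs, 74 passed the filter on low counts. In PS19 against WT, 14 of the 74 were called, where 2.92% of all pairs of gene and class were called. In TG_PS19 against PS19 12 were called, with 5.03% of all pairs called, and in TG_PS19 against WT 5, with 2.28% called. The median log2 fold change of the members was -0.02, 0.00 and -0.09, beside 0.01, -0.01 and -0.0035 over all genes. By direction, 6 were called higher and 8 lower in the first comparison, where 1.39% and 1.53% of all pairs were, 5 and 7 in the second (3.28% and 1.75%), and 1 and 4 in the third (1.59% and 0.69%). Background shares differed between classes, and in the first and second comparison were 8.37% and 8.77% in microglia, 7.19% and 9.34% in oligodendrocytes, 5.87% and 9.39% in astrocytes and 3.04% and 8.85% in dentate granule neurons. DESeq2 called 2, 2 and 1 of the member pairs, with backgrounds of 0.245%, 0.523% and 0.113%. These 5 calls were Neat1 and Snhg11 in astrocytes in PS19 against WT, Neat1 in oligodendrocytes and in microglia in TG_PS19 against PS19, and Snhg11 in dentate granule neurons in TG_PS19 against WT. Where a result below is not among them, DESeq2 either did not call it or gave no adjusted p.

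**Figure D2:**
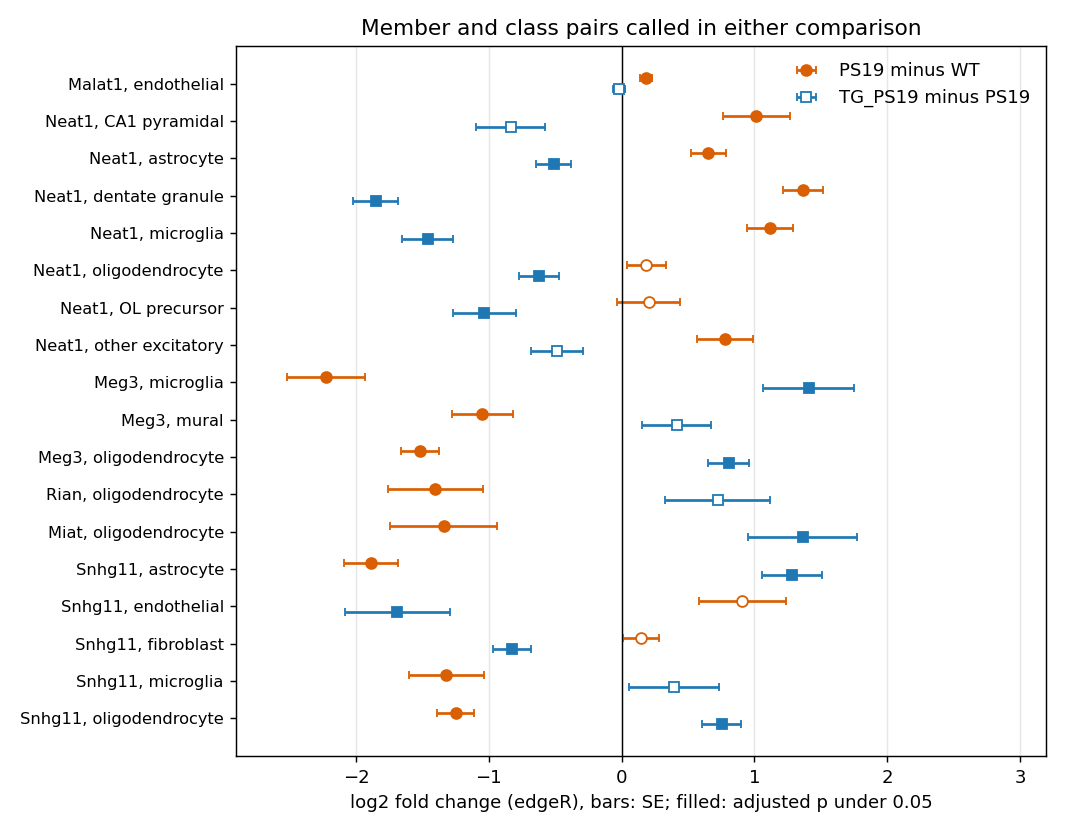
log2 fold change (horizontal axis, bars are standard errors) of each member and class called in PS19 minus WT (circles) or TG_PS19 minus PS19 (squares), with filled symbols for adjusted p under 0.05. Neat1 was called higher in PS19 than in WT in 5 classes, and Meg3, Rian, Miat and Snhg11 were called lower outside neurons.

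Neat1 was called higher in PS19 in 5 of 12 classes and lower in none. Over all classes 1.39% of pairs were called higher, with 4.44% in microglia and 3.26% in astrocytes. The share was 1.47% in dentate granule, 0.117% in CA1 pyramidal and 0.424% in other excitatory neurons. In microglia, the immune cells of the brain, it had 182 CPM in WT, 407 and 387 in PS19 and 135 in TG_PS19. Both PS19 libraries were above the others. From WT to PS19 the log2 fold change was 1.12 (SE 0.17, adjusted p = 9.9e-09) and that from PS19 to TG_PS19 was -1.46 (SE 0.19, adjusted p = 4.1e-12), by edgeR. Thinned to 1000 UMIs, 13.8% of WT, 28.6% and 21.9% of PS19 and 9.57% of TG_PS19 microglia held a Neat1 UMI, beside 2.44%, 4.32%, 3.68% and 1.70% of dentate granule neurons. Without thinning the microglia had 20.5%, 46.0%, 40.6% and 15.97%.

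The microglia consisted of 2 clusters whose weights differed between groups. A cluster led by Inpp5d and Siglech held 571 WT, 116 and 140 PS19 and 393 TG_PS19 nuclei. A cluster led by Apobec1 and Ly86 held 25 WT, 147 and 158 PS19 and 14 TG_PS19 nuclei. Within the first cluster Neat1 had 147 CPM in WT, 151 and 231 in PS19 and 125 in TG_PS19. Within the second it had 907 CPM in WT, 584 and 512 in PS19 and 436 in TG_PS19, so that WT was not below PS19 in it. In the first cluster alone Neat1 was called in neither comparison, with a log2 fold change of 0.41 and -0.57. A larger share of PS19 than of WT or TG_PS19 microglia lay in the Apobec1 and Ly86 cluster. The part of this share in the higher Neat1 level of PS19 microglia was not tested. With doublets kept the change from WT to PS19 was 0.26 and was not called.

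**Figure D3:**
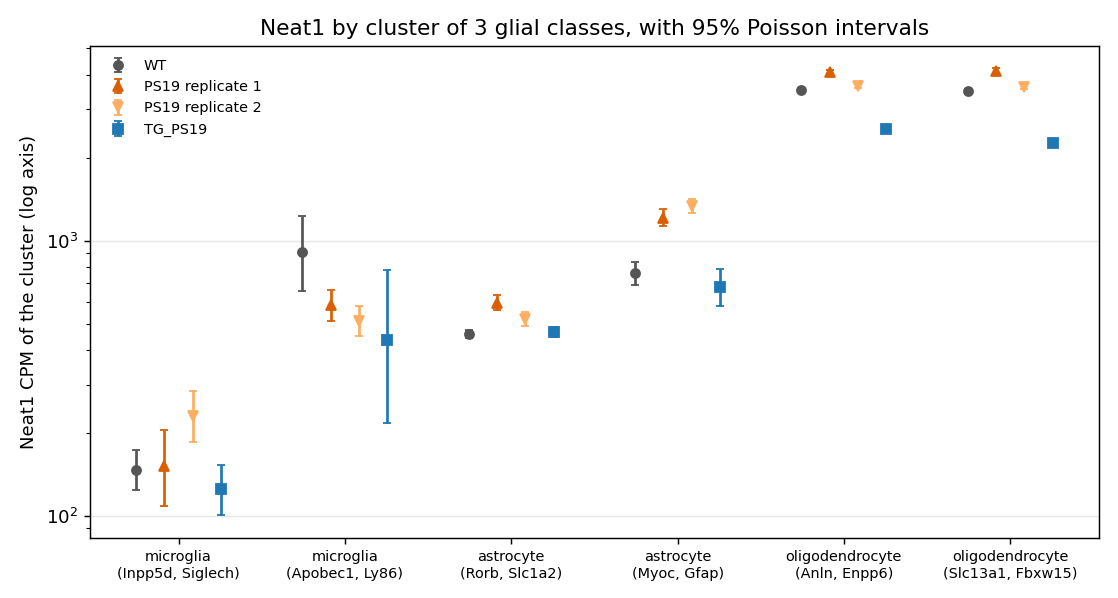
Neat1 CPM (vertical axis, logarithmic) in the main clusters of microglia, astrocytes and oligodendrocytes, named by their leading genes, 1 point per library with 95% Poisson intervals that cover counting error only. In the astrocyte cluster led by Myoc and Gfap both PS19 libraries, at 1214 and 1339 CPM, lie above WT and TG_PS19.

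In astrocytes Neat1 had 480 CPM in WT, 781 and 760 in PS19 and 479 in TG_PS19, and both PS19 libraries were above the others. The log2 fold change was 0.65 (SE 0.13, adjusted p = 4.0e-05) from WT to PS19 and -0.51 (SE 0.13, adjusted p = 0.0021) from PS19 to TG_PS19, by edgeR. Here a cluster led by Myoc and Gfap, the intermediate filament gene of reactive astrocytes, held 201 WT, 154 and 166 PS19 and 82 TG_PS19 nuclei. Neat1 in it was 762 CPM in WT, 1214 and 1339 in PS19 and 678 in TG_PS19, and both PS19 libraries were above the others. A cluster led by Cxcl10 and Iigp1 held 7 and 5 PS19 nuclei, with 2033 and 2194 CPM, and 1 nucleus in each other library. In the largest cluster, led by Rorb and Slc1a2, it was 458, 596 and 519, and 464 CPM, and neither comparison was called there. The Myoc and Gfap cluster held a larger share of PS19 than of WT or TG_PS19 astrocytes.

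In oligodendrocytes Neat1 was not called between PS19 and WT (log2 fold change 0.18, SE 0.15, adjusted p = 0.57 by edgeR). TG_PS19 against PS19 gave a log2 fold change of -0.62 (SE 0.15, adjusted p = 0.0010 by edgeR), and the WT library, at 3516 CPM, lay just below the PS19 libraries. The lower TG_PS19 level was seen in both oligodendrocyte clusters, at 2550 and 2259 CPM against 3485 to 4147 CPM in the other libraries. TG_PS19 nuclei with Y-linked UMIs had 2543 CPM and those with Xist UMIs 2250 CPM. Of 14 alternatives, only thinning to 1000 UMIs lost the call. In oligodendrocyte precursors Neat1 fell from 76.8 and 63.3 CPM in PS19 to 31.9 CPM in TG_PS19, with 61.4 CPM in WT. The change was -1.03 on the log2 scale (SE 0.24, adjusted p = 0.0016 by edgeR), and the call was lost with doublets kept (-0.38). With only the 146 Y-called TG_PS19 nuclei, at 33.2 CPM from 20 UMIs, the change was of similar size (-0.98) and was not called.

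Neat1 in neurons was called higher in PS19 in dentate granule neurons (log2 fold change 1.36, SE 0.15), CA1 pyramidal (1.02, SE 0.25) and other excitatory neurons (0.78, SE 0.21), with edgeR adjusted p of 3.2e-16, 0.016 and 0.028. In dentate granule neurons it was also called lower in TG_PS19 than in PS19, by 1.85 (SE 0.17, adjusted p = 3.6e-24 by edgeR). The counts behind these calls were small, at 246 UMIs in WT, 319 and 254 in PS19 and 121 in TG_PS19 for dentate granule neurons. Of those UMIs, 69.0% and 70.9% in the PS19 libraries came from 15 of 486 and 13 of 544 nuclei with at least 5 Neat1 UMIs each. In WT 2 of 1603 nuclei and in TG_PS19 2 of 1000 nuclei had as many, with 4.88% and 15.7% of the UMIs. In other excitatory neurons Neat1 had 29.5 CPM in WT, 79.0 and 29.7 in PS19 and 35.3 in TG_PS19, with replicate 2 of PS19 close to WT. Without replicate 1 the change was -0.0090, with no test, and with doublets kept it was -0.0057.

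In dentate granule neurons of PS19 the nuclei that carried most of this Neat1 also carried RNA of oligodendrocytes. All 9 oligodendrocyte markers were detected in dentate granule neurons of every library, with a summed level of 539 to 680 CPM. In the PS19 nuclei with at least 5 Neat1 UMIs the sum was 4499 and 4456 CPM, against 499 and 462 CPM in the other nuclei. Leaving out neuron nuclei with 2000 CPM or more of these markers removed 18 WT, 20 and 15 PS19 and 12 TG_PS19 dentate granule nuclei. Neat1 was then 20.5 CPM in WT, 19.8 and 12.5 in PS19 and 10.47 in TG_PS19, and the log2 fold change from WT to PS19 turned to -0.36. In CA1 pyramidal neurons it was 15.7 CPM in WT, 17.98 and 35.7 in PS19 and 10.7 in TG_PS19, with a change of 0.75. In PS19 replicate 2 of CA1, the 3 nuclei with at least 5 Neat1 UMIs had 1454 CPM of the markers, against 139 CPM in the others. Only 1 of 66 nuclei was left out there, and 42 of 51 Neat1 UMIs remained. No neuron class kept a Neat1 call after that step, which was chosen after seeing the data. With doublets kept, dentate granule neurons had 88.1 CPM in WT, 84.4 and 66.4 in PS19 and 51.2 in TG_PS19, and the change from WT to PS19 was -0.22. The doublet caller had removed 10.2% of WT barcodes, 3.70% and 3.94% of PS19 and 7.78% of TG_PS19 barcodes.

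**Figure D4:**
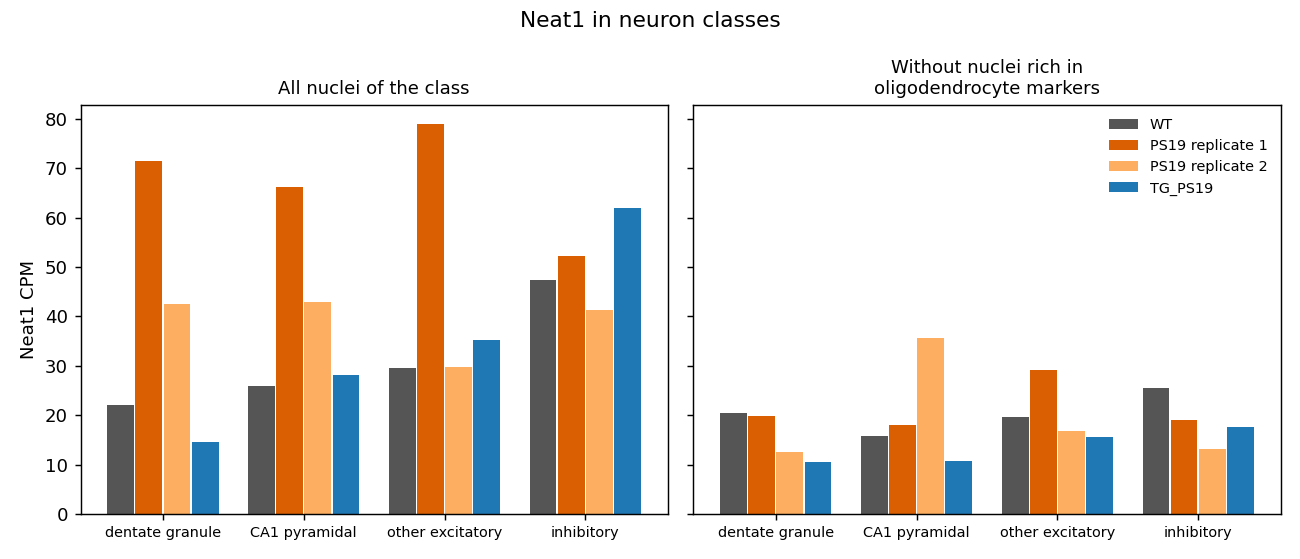
Neat1 CPM (vertical axis) in 4 neuron classes, 1 bar per library, for all nuclei (left) and without nuclei that held 2000 CPM or more of 9 oligodendrocyte markers (right). In dentate granule neurons the PS19 libraries stand at 71.6 and 42.6 CPM on the left and at 19.8 and 12.5 CPM on the right, below the WT library.

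Meg3 did not pass the test in any neuron class in any comparison. Its calls lay in cells in which it is scarce. In oligodendrocytes it had 89.1 CPM in WT, 42.6 and 19.3 in PS19 and 50.7 in TG_PS19. The PS19 libraries were lowest and differed from each other by more than 2 times. The change on the log2 scale was -1.52 (SE 0.14, adjusted p = 7.7e-24) from WT to PS19 and 0.81 (SE 0.15, adjusted p = 8.0e-06) from PS19 to TG_PS19, by edgeR. TG_PS19 was also called below WT, by 0.71 (SE 0.16, adjusted p = 7.9e-04 by edgeR). Of 14 alternatives, 12 kept the first call, 10 the second and 9 the call of TG_PS19 below WT. Thinning to 1000 UMIs lost the second and the call below WT, and a robust prior in edgeR lost each of them. Leaving out PS19 replicate 1 or 2 moved the first change to -2.16 or -1.02 and the second to 1.44 or 0.31.

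In microglia Meg3 had 115 CPM in WT, 31.6 and 18.9 in PS19 and 61.6 in TG_PS19, from 117, 21, 16 and 46 UMIs. On the log2 scale the change was -2.22 (SE 0.29, adjusted p = 5.8e-12) from WT to PS19 and 1.41 (SE 0.34, adjusted p = 0.0010) from PS19 to TG_PS19, by edgeR. The second was kept in 8 of 13 alternatives, and thinning to 1000 UMIs was among those that lost it. In mural cells, where Meg3 was higher, it had 637 CPM in WT, 354 and 260 in PS19 and 397 in TG_PS19. The fall from WT to PS19 was called (log2 fold change -1.05, SE 0.23, adjusted p = 9.5e-04 by edgeR). In oligodendrocyte precursors Meg3 was between 347 and 446 CPM in all libraries and was not called.

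**Figure D5:**
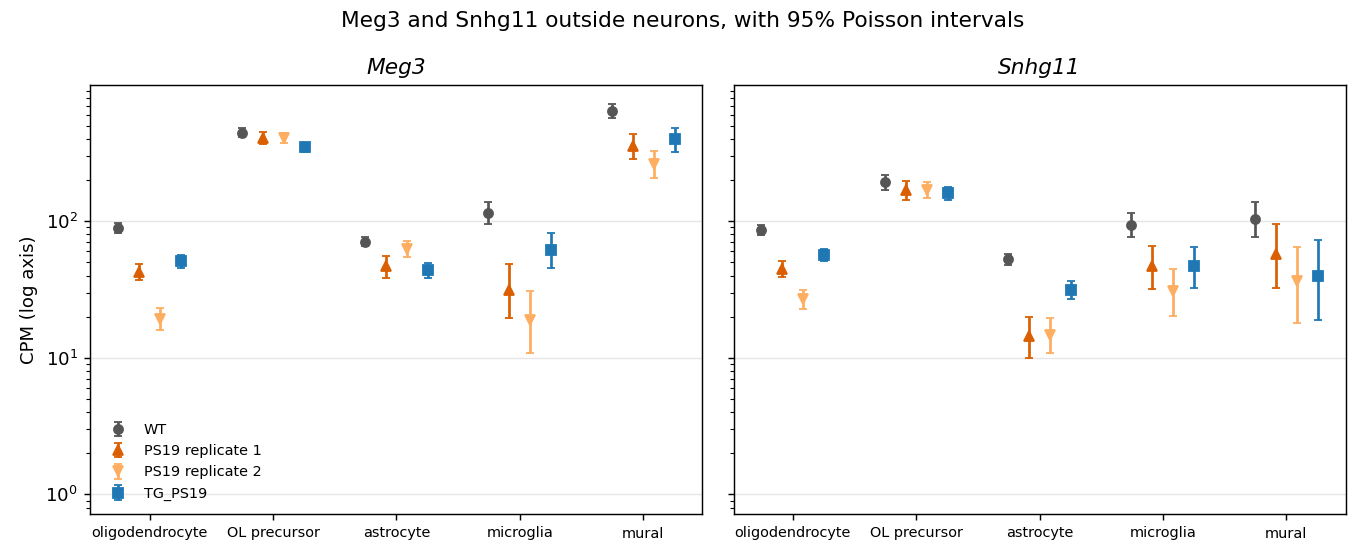
CPM (vertical axis, logarithmic) of Meg3 and Snhg11 in 5 classes outside neurons, 1 point per library with 95% Poisson intervals that cover counting error only. In oligodendrocytes, microglia and mural cells WT is the highest library for both genes, while in oligodendrocyte precursors the libraries lie close together.

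Other neuron-rich members moved with Meg3 in oligodendrocytes. Rian had 9.41 CPM in WT, 4.58 and 2.49 in PS19 and 5.47 in TG_PS19, and was called lower in PS19 (log2 fold change -1.40, SE 0.36, adjusted p = 0.0025 by edgeR). Miat, from 48 UMIs in WT, 21 and 7 in PS19 and 44 in TG_PS19, was called lower in PS19 (-1.34, SE 0.40, adjusted p = 0.018) and higher in TG_PS19 than in PS19 (1.37, SE 0.41, adjusted p = 0.014), by edgeR. Both Miat calls were lost without the cluster led by Anln and Enpp6 (-0.67 and 1.01), with library totals (-1.38 and 1.31) and after thinning (-1.11 and 1.87). Without replicate 1 of PS19 the changes were -2.48 and 2.51, and without replicate 2 they were -0.61 and 0.64, with no test. Mirg had 2 to 10 UMIs per library in oligodendrocytes and was called in no class.

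Snhg11 followed in 3 classes. Over all classes 1.53% of pairs were called lower in PS19, with 2.62% in astrocytes, 4.37% in oligodendrocytes and 3.93% in microglia. In astrocytes it had 52.6 CPM in WT, 14.3 and 14.7 in PS19 and 31.4 in TG_PS19. The counting intervals of the PS19 libraries overlapped and lay below both others. From WT to PS19 the change was -1.88 on the log2 scale (SE 0.20, adjusted p = 1.3e-17 by edgeR). That call held under all 13 alternatives tested with edgeR or DESeq2. From PS19 to TG_PS19 the change was 1.28 (SE 0.23, adjusted p = 8.9e-07 by edgeR), and 11 of 13 alternatives kept the call. It was lost with DESeq2 and after thinning to 1000 UMIs. In oligodendrocytes Snhg11 had 85.9 CPM in WT, 44.5 and 26.7 in PS19 and 57.0 in TG_PS19, with a log2 fold change of -1.25 (SE 0.14, adjusted p = 1.5e-16) and then 0.76 (SE 0.15, adjusted p = 1.7e-05), by edgeR. The second of these calls was lost with DESeq2, after thinning and in the largest cluster alone. In microglia it had 94.3, 46.6 and 30.7, and 46.9 CPM, and PS19 was called below WT (-1.32, SE 0.28, adjusted p = 1.1e-04 by edgeR).

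These low levels in glia were mostly spread thinly over nuclei. In WT oligodendrocytes the 625 Meg3 UMIs came from 570 of 3363 nuclei, and in WT astrocytes the 448 Snhg11 UMIs came from 417 of 2790 nuclei. No nucleus held 5 Meg3 UMIs in microglia or 5 Snhg11 UMIs in astrocytes. Meg3 in astrocytes, not called in PS19 against WT, was less even. There 5 of 614 and 11 of 687 PS19 nuclei held 30.7% and 67.6% of its UMIs, with at least 5 each. In WT and TG_PS19 such nuclei held 2.65% and 6.75%. The other astrocytes had 69.1 CPM of Meg3 in WT, 32.6 and 20.7 in PS19 and 40.9 in TG_PS19. Thinned to 1000 UMIs, 9.45% of WT, 4.61% and 2.19% of PS19 and 4.89% of TG_PS19 oligodendrocytes held a Meg3 UMI, beside 84.4% to 88.1% of dentate granule neurons (unthinned 16.9%, 9.77%, 5.93% and 10.1%). Over all kept nuclei Meg3 was 2354 CPM in WT, 2282 and 2253 in PS19 and 2511 in TG_PS19.

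Markers of other cell types were also present in these glia. The 8 Cajal-Retzius markers, of which 6 or 7 were detected per library, summed to 25.4 CPM in WT oligodendrocytes, with 12.7 and 13.6 CPM found for PS19 and 16.4 CPM for TG_PS19. Markers of other excitatory neurons, 9 of 9 detected, summed to 134, 103 and 102, and 109 CPM. The astrocyte markers summed to 661 CPM in WT oligodendrocytes, to 304 and 256 CPM for PS19 and to 490 CPM for TG_PS19. In astrocytes the Cajal-Retzius list was at 35.4, 35.2 and 30.5, and 23.8 CPM and the CA1 list was lower in WT (136 CPM) than in PS19 (230 and 205 CPM). In microglia the Cajal-Retzius list was at 146, 97.7 and 93.3, and 142 CPM. The lists of dentate granule and inhibitory neurons in oligodendrocytes, at 2897 to 3492 and 1612 to 1879 CPM, had a PS19 library at or above WT in the second case only. The dentate granule cluster itself raised 7 of its 9 listed markers, without Maml2 and Dock10. These sums were not split by gene and can hold RNA of the oligodendrocytes themselves, so they do not measure neuronal RNA alone. The part of RNA from other cells in the Meg3, Rian, Miat and Snhg11 levels of glia was not tested.

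Further Snhg11 results concerned TG_PS19. In fibroblasts it was called below PS19 (log2 fold change -0.82, SE 0.14, adjusted p = 4.9e-05) and below WT (-0.68, SE 0.16, adjusted p = 0.0041), by edgeR, at 813 CPM against 1359 to 1495 CPM. Of thinned TG_PS19 fibroblasts 46.5% held a Snhg11 UMI, against 61.0% to 62.8% in the other libraries. The 55 TG_PS19 fibroblasts with Y-linked UMIs had 1039 CPM and the 204 with Xist UMIs 697 CPM, and both calls were lost with the Y-called nuclei alone. In dentate granule neurons Snhg11 had 978 CPM in WT, 862 and 831 in PS19 and 642 in TG_PS19. It was called below WT in TG_PS19 (-0.49, SE 0.12, adjusted p = 0.0031 by edgeR), and the Y-called and Xist-called nuclei had 618 and 650 CPM. That call held under all 14 alternatives run for it. In all 12 classes the Snhg11 change from WT to TG_PS19 was negative. The classes share the lone WT and the lone TG_PS19 library, so these changes are not independent of each other. Of them 3 were called, oligodendrocytes being the other one (-0.49, SE 0.16, adjusted p = 0.047 by edgeR), a call that 3 of 14 alternatives kept. In endothelial cells Snhg11 was called lower in TG_PS19 than in PS19 (-1.69, SE 0.40, adjusted p = 0.0074 by edgeR), but PS19 replicate 2 held 100 UMIs and replicate 1 held 12. Without replicate 2 the change was 0.16, and the inhibitory neuron markers in the endothelial nuclei (5 to 10 of 12 detected) were 468 CPM in replicate 2 against 209 to 266 CPM elsewhere, whose part was not tested.

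Malat1 changed little. Its log2 fold changes lay between -0.03 and 0.33 in PS19 against WT, with 10 of 12 classes above 0. It was called in endothelial cells only, at 8.10% of UMIs in WT, 9.40% and 8.66% in PS19 and 8.599% in TG_PS19 (0.19, SE 0.05, adjusted p = 0.023 by edgeR). In TG_PS19 against WT it was called in astrocytes, at 9.49% against 7.54% (0.48, SE 0.14, adjusted p = 0.033 by edgeR). The endothelial call held in 3 of 12 alternatives and the astrocyte call in 4 of 12. As Malat1 is a large share of all UMIs, the other members were also tested with it left out of the totals, which lost none of their calls.

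Some partners of these RNAs in paraspeckles and speckles were called in single classes. Of 204 pairs of 18 paraspeckle proteins and class, 0 were called in PS19 against WT by edgeR, and 1 was higher and 5 lower in TG_PS19 against PS19. Those 6 are 2.94% of the pairs, beside 5.03% of all pairs of gene and class called in that comparison. Among them Sfpq, a core paraspeckle protein, rose in dentate granule neurons from 207 and 198 normalised CPM in PS19 to 282 in TG_PS19, with 214 in WT (log2 fold change 0.48, SE 0.10, adjusted p = 1.4e-04 by edgeR). Cirbp, a cold-inducible RNA-binding protein, fell in the same nuclei from 36.0 and 27.7 to 20.7 normalised CPM. Of 240 pairs of 20 nuclear speckle genes, 4 (1.67%) were called higher and 0 lower in PS19 against WT, beside 1.39% of all pairs called higher. Of the 4, 2 were in oligodendrocytes: Clk4, with 159 normalised CPM in WT and 209 and 258 in PS19, and Son, the speckle scaffold, with 413 and then 587 and 541. The median log2 fold change of the speckle list was 0.06 and that of the paraspeckle list 0.02, beside 0.01 over all genes.

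In and near the Dlk1-Dio3 domain, 0 of 53 pairs of the other listed genes were called in PS19 against WT by edgeR. From PS19 to TG_PS19, 4 were called higher and 1 lower, which is 9.43% beside 5.03% of all pairs. The 4 were all Rtl1, in dentate granule, CA1, other excitatory and inhibitory neurons, and the lower one was Ppp2r5c, a phosphatase subunit gene, in dentate granule neurons. In CA1 pyramidal neurons Rtl1, a retrotransposon-derived gene of the paternal copy, had 16.9 normalised CPM in WT, 17.4 and 15.2 in PS19 and 42.7 in TG_PS19. It was called higher in TG_PS19 than in PS19 (log2 fold change 1.39, SE 0.31, adjusted p = 8.7e-04 by edgeR), while Meg3, Rian and Mirg were not called in these neurons. Of 135 pairs of 12 genes that bind or mature long non-coding RNAs, 2 (1.48%) were called lower in PS19 than in WT, both Celf3, beside 1.53% of all pairs.

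Among 31 detected genes of a list of other long non-coding RNAs, 19 of 300 pairs were called higher and 3 lower in PS19 against WT, with a median log2 fold change of 0.15. Of all pairs, 1.39% were called higher and 1.53% lower. Pvt1 rose in astrocytes, from 26.4 normalised CPM in WT to 66.6 and 84.5 in PS19, with 24.3 in TG_PS19 (1.53, SE 0.17, adjusted p = 6.6e-16 by edgeR). Snhg3 rose there from 38.3 to 74.8 and 71.4 (0.93, SE 0.16, adjusted p = 1.1e-06 by edgeR). Rmst, a transcript of neurons and their progenitors, fell in oligodendrocytes from 8.31 to 1.45 and 2.18 normalised CPM, the direction of Meg3 and Snhg11 there (-2.16, SE 0.42, adjusted p = 1.3e-05 by edgeR).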

How the data were processed

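Single-nucleus RNA-seq of hippocampus was analysed in 4 libraries. The deposited values are raw UMI counts, for which the submitters' processing notes name Cell Ranger 7.1.0 and build GRCm38. The annotation, intron counting and strand are not given in the sources used here. The members and gene lists were chosen with earlier results of these data known.

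Nuclei with under 500 UMIs, under 300 genes or over 5% mitochondrial UMIs were left out. Doublets were scored by a rewritten Scrublet method and removed at 0.8% per 1000 nuclei. Clusters came from 2000 variable genes (members excluded), 30 components, 15 neighbours and the Leiden method (leidenalg 0.10.2). Clusters were named from 18 marker lists. After clusters were seen, CA3 and other excitatory neurons were merged, and Enpp6 was not held against a mature oligodendrocyte cluster. Sums per class and library were tested with edgeR 4.0.16 (TMM scaling, filtered low counts, quasi-likelihood, 2-sided), checked on simulated data, with DESeq2 1.42.0 as an alternative. Normalised CPM are TMM-scaled. Named genes are the members in every class and, of each other list, up to 3 called genes per comparison with the smallest adjusted p. Intervals are exact at 95% (Poisson for levels, Clopper-Pearson for shares) and cover counting error only. A level of 0 UMIs was drawn at 3 counts. The depth per library was 48670533 UMIs in WT, 20064025 and 26198644 in PS19 and 38971002 in TG_PS19. Alternatives covered scaling, filter, test, thinning, doublets, clustering, sex and single clusters.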

Additional observations from a re-analysis of the deposited data

Results flagged for a closer look

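Snhg11 changed in opposite directions between cell classes in TG_PS19 against PS19, with both PS19 libraries on the same side each time. The log2 fold change was 1.28 in astrocytes and 0.76 in oligodendrocytes, and -0.82 in fibroblasts. None of these calls was kept with DESeq2. Thinning to 1000 UMIs lost the calls in astrocytes and oligodendrocytes, and the largest cluster alone lost that in oligodendrocytes. With only Y-called TG_PS19 nuclei the call in fibroblasts was lost. The difference between these classes was not tested.

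A cluster led by Ttr and Dynlt1a was left unnamed and entered no comparison. Its nuclei were shallow, with a median of 0.409 times the median UMIs of their library, the lowest of the main clusters. Rplp1, Rpl41, Cox4i1, Fth1 and Tpt1 were also among its leading genes. The part of RNA from other cells in it was not tested. The cluster held 646 TG_PS19, 110 WT, and 11 and 6 PS19 nuclei. In TG_PS19 it had 71700 CPM of Malat1, 1111 CPM of Neat1 and 2698 CPM of Meg3. These values lay above the 50018, 424 and 2223 CPM in WT, with no overlap of the 95% Poisson intervals, which cover counting error only. The 11 nuclei of PS19 replicate 1 had 78768, 2550 and 3236 CPM and the 6 of replicate 2 had 48441, 46.7 and 1307 CPM.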

How the results depend on the processing

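For 31 calls of a member in a class, 17 alternatives gave 475 values, of which 5 changed direction. Neat1 from WT to PS19 in dentate granule neurons was -0.22 with doublets kept and -0.36 without neuron nuclei rich in oligodendrocyte markers. In other excitatory neurons it was -0.0057 with doublets kept, and without a PS19 replicate -0.0090 to 1.36. Snhg11 from PS19 to TG_PS19 in endothelial cells was -2.36 to 0.16 without a PS19 replicate. Without a PS19 replicate there is no residual degree of freedom and no test.

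Called member pairs numbered 14 (PS19 and WT), 12 (TG_PS19 and PS19) and 5 (TG_PS19 and WT), and numbered 2, 2 and 1 with DESeq2 and 8, 4 and 3 after thinning to 1000 UMIs. In the second comparison 5 pairs were called higher in the main analysis and 0 after thinning. In the largest cluster of each class alone the number of calls was 7 in the second comparison and 3 in the third. In the third it was also 3 with relative log expression scaling, with Y-called TG_PS19 nuclei, with adjusted residual degrees of freedom and without the oligodendrocyte cluster led by Anln and Enpp6, and 2 with a robust prior. Thinning and smaller subsets leave fewer counts, and the cause of the other losses was not tested. Chosen after seeing the data were 4 alternatives: adjusted degrees of freedom, the largest cluster alone, oligodendrocytes without 1 cluster, and neurons without nuclei rich in oligodendrocyte markers. Scaling by library totals moved the median of all genes in astrocytes by -0.17 from PS19 to TG_PS19.

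Levels are means of 3 groups. With Malat1 left out of the totals, oligodendrocyte Neat1 moved from 3273 to 3633 CPM, CA1 Miat from 256.7 to 279 CPM, and inhibitory neuron Meg3 from 10524 to 11140, Rian from 848 to 898, Mirg from 173 to 183 and Snhg11 from 8882 to 9403 CPM. Thinning gave 9731, 784, 159 and 8583 CPM for the last 4 members. With doublets kept, Malat1 in mural cells was 135500 against 149200 CPM, Mirg 169, Snhg11 8626 and Miat 239 CPM. Leaving out a PS19 replicate can move a mean of 3 groups only by a part of the spread of the pair. That alternative is therefore no check of these levels. The share of dentate granule neurons with a UMI was, thinned and then not thinned, 100% and 100% for Malat1, 2.71% and 12.8% for Neat1, 85.9% and 99.9% for Meg3, 20.6% and 74.9% for Rian, 2.71% and 21.0% for Mirg, 16.2% and 70.1% for Miat, and 50.02% and 89.5% for Snhg11.

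No paired analysis was possible because only the PS19 libraries carry replicate numbers.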

Other observations

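Member levels also varied with depth within a class. Nuclei of each of the 48 combinations of class and library were ranked by UMIs and split into 3 equal parts. Snhg11 CPM fell at each step from the shallowest to the deepest part in 23 of 48 and rose at each step in 4, with no test. Meg3 fell in 17 and rose in 7, and Malat1 fell in 18 and rose in 10. Neat1 fell in 6 and rose in 15.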
